A study of Mus musculus with 2 samples.

Results

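Mitochondria carry ribosomes of their own, which make the few proteins encoded by mitochondrial DNA, all of them subunits of the respiratory chain or of ATP synthase. The protein parts of these ribosomes are encoded in the nucleus, translated in the cytosol and imported, and they assemble with RNA made in the mitochondrion. The large subunit joins amino acids and holds the tunnel through which the new chain leaves, and the small subunit reads the mRNA. Genes for these proteins carry the symbols Mrpl for the large and Mrps for the small subunit. All genes whose symbol begins with Mrpl or Mrps and a digit were taken, with pseudogene symbols left out, which gave 78 of the 20634 genes listed, 49 Mrpl and 29 Mrps genes. The symbol is not a perfect guide to the subunit, since the products of Mrps30 and Mrps18a sit in the large subunit and the product of Mrps36 belongs to the oxoglutarate dehydrogenase complex.

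The data are RNA-seq profiles of whole mouse uterus, 1 library labelled Mettl3 ed/ed and 1 labelled Mettl3 f/f, where Mettl3 encodes the catalytic subunit of the enzyme that writes N6-methyladenosine on RNA. Dams of both genotypes were mated at 6 to 8 weeks of age with fertile males, and uteri were taken on gestational day 4, with the day of the vaginal plug as day 1. The labels expand neither genotype symbol and give neither a Cre driver nor the number of animals behind a library. The comparison asked how uterine expression differed between the genotypes, and since each had a single library, no spread was measured and no test was possible.

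Levels are FPKM, fragments scaled to transcript length and to sequencing depth, so that genes can be compared with each other within a library. Ratios are on the log2 scale after 1 FPKM was added to both values, with ed/ed over f/f, so a positive value means more in ed/ed, and the ratios of low genes are drawn toward 0. Folds and ratios given without log2 are plain quotients of FPKM. Higher and lower give the direction of a difference, and genes are counted past 2-fold on that scale, a cut on size and not a test. The spacing of low values put the depth at 17600000 fragments in ed/ed and 18200000 in f/f. The fit was partial. Its concentration, which is 1 for perfect spacing, was 0.49 over 223 genes in ed/ed and 0.43 over 213 genes in f/f. Fragment numbers and counting intervals below rest on these estimated depths. The level of Mettl3, 10.2 FPKM in ed/ed and 10.6 FPKM in f/f, did not separate the libraries, and a value over the whole gene does not test for missing exons, so every direction below rests on the labels. Over the 12165 genes that reached 1 FPKM in at least 1 library the median log2 ratio was -0.26 (SD 0.58 across genes). Of these genes 29.6% had a ratio above 0. Cell type markers differed between the libraries too. Stroma markers summed to 581 FPKM in ed/ed and 1191 FPKM in f/f, with 0 of 10 ratios above 0 and a median log2 ratio of -0.91. Endothelium markers summed to 95.03 FPKM in ed/ed and 195 FPKM in f/f, with 0 of 8 ratios above 0 and a median log2 ratio of -1.17. Myometrium markers summed to 823 FPKM in ed/ed and 495 FPKM in f/f, with 8 of 8 ratios above 0 and a median log2 ratio of 0.52. Epithelium markers summed to 2917 FPKM in ed/ed and 2831 FPKM in f/f, with 7 of 10 ratios above 0 and a median log2 ratio of 0.28. Macrophage markers summed to 361 FPKM in ed/ed and 276 FPKM in f/f, with 6 of 8 ratios above 0 and a median log2 ratio of 0.43. Genes of uterine identity summed to 743 FPKM in ed/ed and 856 FPKM in f/f, with 1 of 7 ratios above 0 and a median log2 ratio of -0.79. The last sum was carried by Msx1, at 486 FPKM in ed/ed and 443 FPKM in f/f. None of these markers was at 0 in either library. In whole tissue, fewer cells of a type and less RNA per cell cannot be told apart, and the part of these shifts in the ratios below was not tested.

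As a group the mitochondrial ribosomal protein genes lay close to equal in the libraries, whereas the ratio was above 0 in 29.6% of all genes. The large subunit genes had a median log2 ratio of -0.03 and the small subunit genes 0.05, against -0.26 over all genes. The genes ranged from Mrpl43, 2.77-fold higher in ed/ed, to Mrpl30, 1.79-fold lower. The SD of their log2 ratios was 0.43, against 0.58 over all genes. Mrpl43 alone of the 78 was at least 2-fold higher, against 2.68% of all genes, and 0 of 78 were at least 2-fold lower, against 6.22%.

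The promoters of 4 genes described below are shown. Mrpl43 and Mrpl30 had the highest and the lowest ratio of the 78, Mrps12 had the highest ratio of the small subunit, and Mrpl12 the highest of the stalk. Each line gives the 250 bases before the transcription start in RefSeq (GRCm38.p6). Capitals mark matches, on either strand, to the core motif of nuclear respiratory factor NRF1 (GCGC, any base, then TGCGC) and to that of ETS factors such as GABP (CCGGAAG).

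Mrpl43 (chr19:45006443-45006692, minus strand): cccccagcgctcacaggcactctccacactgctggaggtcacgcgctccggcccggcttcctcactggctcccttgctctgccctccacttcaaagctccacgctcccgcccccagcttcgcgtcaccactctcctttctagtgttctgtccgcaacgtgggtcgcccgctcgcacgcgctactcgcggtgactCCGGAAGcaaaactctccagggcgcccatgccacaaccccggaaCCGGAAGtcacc

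Mrpl12 (chr11:120484387-120484636, plus strand): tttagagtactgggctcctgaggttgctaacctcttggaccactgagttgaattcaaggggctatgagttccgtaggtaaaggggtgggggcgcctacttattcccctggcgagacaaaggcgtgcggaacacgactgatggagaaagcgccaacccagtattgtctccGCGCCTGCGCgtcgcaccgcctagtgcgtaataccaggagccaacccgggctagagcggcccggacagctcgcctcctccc

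Mrps12 (chr7:28741822-28742071, minus strand): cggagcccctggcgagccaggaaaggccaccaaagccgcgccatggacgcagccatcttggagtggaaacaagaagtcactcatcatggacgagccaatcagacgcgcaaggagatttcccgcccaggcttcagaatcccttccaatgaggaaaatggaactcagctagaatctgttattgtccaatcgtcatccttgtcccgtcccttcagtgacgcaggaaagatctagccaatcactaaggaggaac

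Mrpl30 (chr1:37890227-37890476, plus strand): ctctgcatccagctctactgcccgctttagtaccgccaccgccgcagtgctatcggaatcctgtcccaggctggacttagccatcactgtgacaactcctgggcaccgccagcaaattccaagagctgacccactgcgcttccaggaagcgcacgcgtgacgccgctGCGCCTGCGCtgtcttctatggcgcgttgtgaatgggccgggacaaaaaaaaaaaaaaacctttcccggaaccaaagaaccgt

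NRF1 and GABP are known as activators of nuclear genes for mitochondria. The Mrpl43 window holds 2 ETS matches and no NRF1 match, the Mrpl12 and Mrpl30 windows hold 1 NRF1 match each, and the Mrps12 window holds neither. Promoters were found for 69 of the 78 genes. An NRF1 match was present in 10 of them (14.5%), against 8.31% of the 9735 promoters of genes at 1 FPKM or more. By subunit, 9 of 43 large subunit promoters and 1 of 26 small subunit promoters held one. An ETS match was present in 16 (23.2%), against 14.1%, and the TATA box letters TATAAA in 4 (5.80%), against 6.11%. A match to the motif of the factor YY1 was present in 2 (2.90%), against 1.13%, and the letters CCAAT in 25 (36.2%), against 36.4%. Matches of different motifs overlapped in 0 of the 69 windows. The ratios were alike with and without an ETS match and lower with an NRF1 match, in descriptions that no test backs. Genes with an ETS match had a median log2 ratio of -0.00628 and those without -0.00730, and the medians for NRF1 were -0.12 with a match and 0.00131 without. The NRF1 medians rest on 10 and 59 genes, and 9 of the 10 are large subunit genes. The large subunit had the lower median, -0.03 against 0.05 for the small.

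All 78 genes were above 1 FPKM in both libraries, so the filter on low values removed none. Levels of large subunit genes ran from 5.68 to 367 FPKM in ed/ed, with a median of 30.8, and from 6.58 to 366 FPKM in f/f, with a median of 37.1. Levels of small subunit genes ran from 9.61 to 192 FPKM in ed/ed, with a median of 31.003, and from 10.3 to 203 FPKM in f/f, with a median of 30.6.

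Mrpl52 and Mrpl33 led the large subunit in both libraries. Mrpl52, a mitochondria-specific protein, was at 367 FPKM in ed/ed and 366 FPKM in f/f. Mrpl33, a homologue of the bacterial protein L33, was at 229.7 FPKM in ed/ed and 275 FPKM in f/f. Mrps21, the homologue of bacterial S21, led the small subunit at 192 FPKM in ed/ed and 203 FPKM in f/f, followed by Mrps6 at 181 FPKM in ed/ed and 116 FPKM in f/f. At the other end, Mrpl35, Mrpl17 and Mrpl1, homologues of the bacterial proteins L35, L17 and L1, were the least abundant of the large subunit by mean level. Mrpl35 was at 5.68 FPKM in ed/ed and 7.79 FPKM in f/f. Mrpl17 was at 7.25 FPKM in ed/ed and 6.58 FPKM in f/f. Mrpl1, part of the mobile arm at the tRNA exit, was at 6.49 FPKM in ed/ed and 9.48 FPKM in f/f. The least abundant small subunit genes by mean level, Mrps22, Mrps31 and Mrps25, all encode mitochondria-specific proteins. Mrps22 was at 9.61 FPKM in ed/ed and 12.1 FPKM in f/f. Mrps31 was at 11.6 FPKM in ed/ed and 10.3 FPKM in f/f. Mrps25 was at 11.3 FPKM in ed/ed and 11.5 FPKM in f/f, but 69.8% of its exon bases overlap Nr2c2 on the opposite strand. None of these 6 low genes passed 1.5-fold on the log2 scale. The order of levels was largely shared by the libraries, with a Spearman rho of 0.92 across the large and 0.91 across the small subunit genes, which share gene structure and alignment and are not replicates. Summed levels of the large subunit genes were 2652 FPKM in ed/ed and 2551 FPKM in f/f, a ratio of 1.04, and those of the small subunit genes were 1329 FPKM in ed/ed and 1205 FPKM in f/f, a ratio of 1.10.

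**Figure D1:**
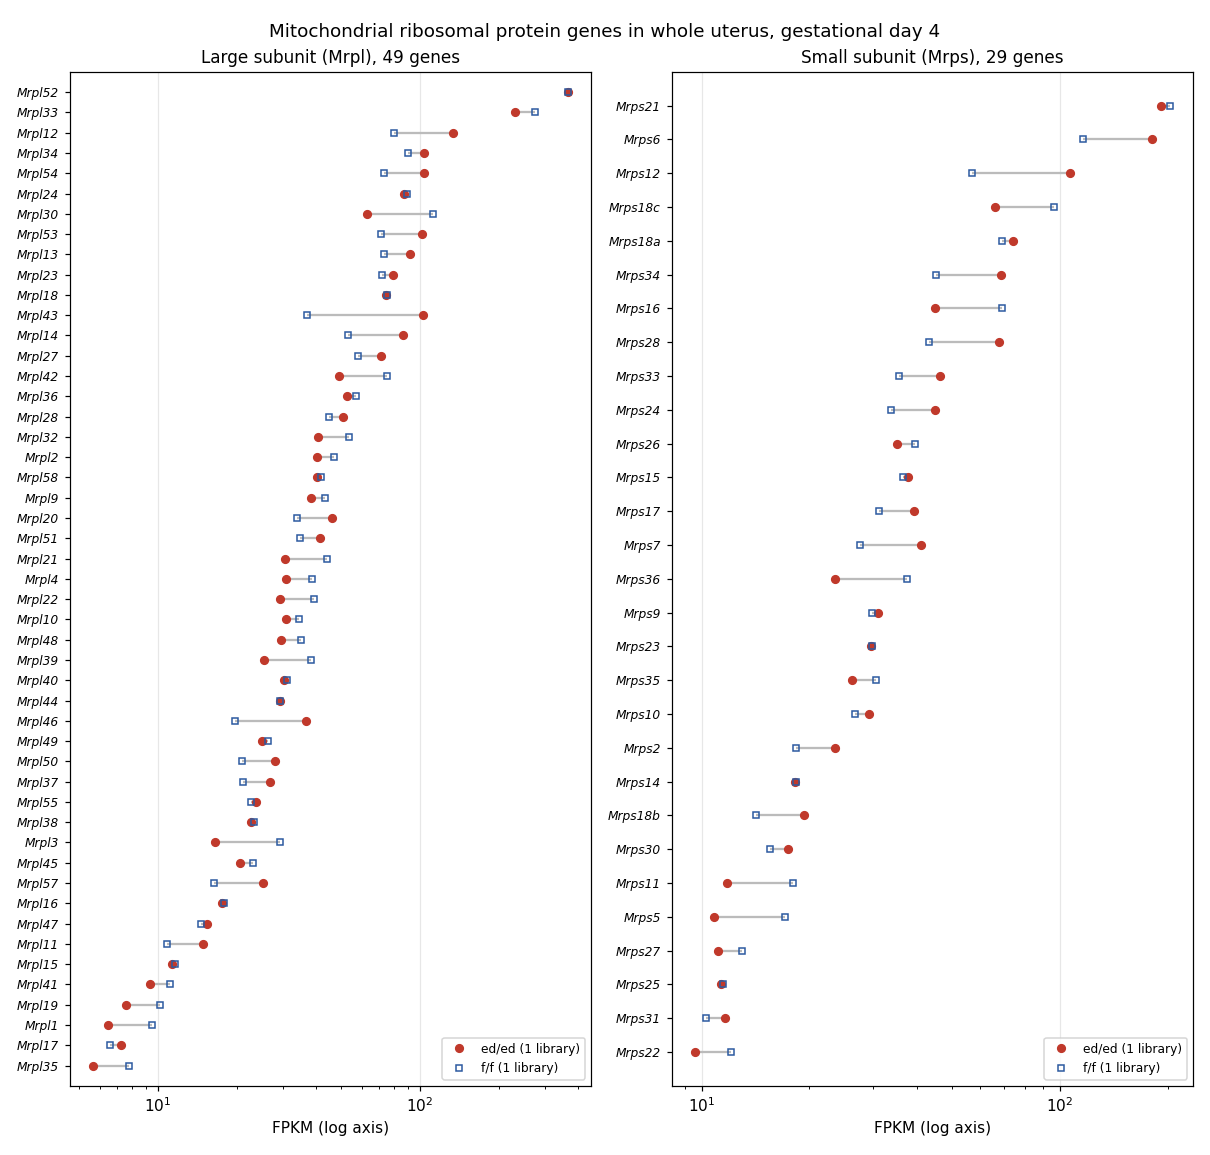
FPKM (log axis) of each of the 49 large and 29 small subunit genes in the ed/ed library (filled circles) and the f/f library (open squares), ordered by mean level, with 1 library per genotype and no error bars. The gap at Mrpl43, 103 FPKM in ed/ed and 37.1 FPKM in f/f, is the widest, and most pairs of points lie close together.

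Of the large subunit genes 21 of 49 had a ratio above 0, and 16 of 29 small subunit genes did, against 29.6% of all genes. The numbers above the median of all genes were 38 of 49 and 23 of 29, against 50.0%. At 1.5-fold, 5 large subunit genes were higher and 3 lower, and 4 small subunit genes were higher and 3 lower, against 7.04% higher and 23.4% lower over all genes. The large subunit genes past 1.5-fold were Mrpl43, Mrpl46, Mrpl12, Mrpl14 and Mrpl57 on the higher side and Mrpl30, Mrpl3 and Mrpl42 on the lower side. In the small subunit they were Mrps12, Mrps6, Mrps28 and Mrps34 on the higher side and Mrps36, Mrps5 and Mrps16 on the lower side. The spread of ratios across the 78 genes had an SD of 0.43, against 0.58 over all genes. The median changed its sign with the scale for the large subunit genes, from -0.03 as deposited to between 0.05 and 0.31 under 4 other scalings, while that of the small subunit genes stayed above 0, at 0.13 to 0.40. These scalings multiply ed/ed FPKM by factors of 0.09 to 0.36 on the log2 scale, so genes and groups listed slightly below 0 turn positive under some of them, and under the largest 39 of 49 large and 24 of 29 small subunit genes lay above 0. The distance from the median of all genes was 0.23 for the large and 0.31 for the small subunit genes as deposited. Under those scalings it was 0.24 to 0.25 for the large and 0.32 to 0.34 for the small subunit genes. A single factor moves all genes nearly alike, so it could hardly change this distance. With the trend on transcript length removed the distances were 0.08 and 0.20, and with no filter 0.16 and 0.24. At a pseudocount of 5 FPKM they were 0.14 and 0.21, and at 0.1 FPKM 0.26 and 0.34.

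**Figure D2:**
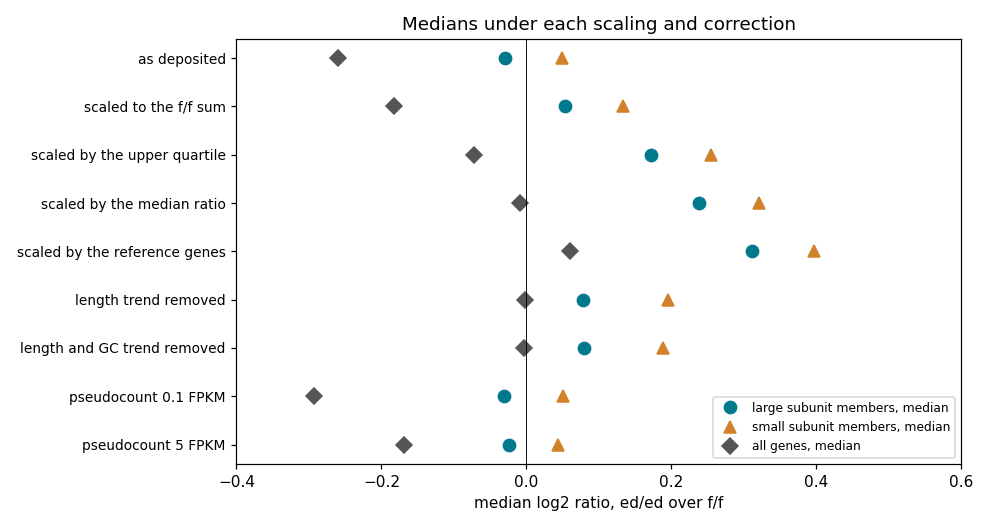
Median log2 ratio of ed/ed over f/f for large subunit genes (circles), small subunit genes (triangles) and all expressed genes (diamonds), with the values as deposited, under 4 scalings, with the trends on transcript length and GC content removed, and with 2 other pseudocounts. Both subunit medians lie to the right of the median of all genes in every row, by less once the length trend is removed.

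Transcript length moved with these values. The ratio fell with length over all genes (Spearman rho -0.22 across 12158 genes), and the rho was -0.21 across the 78, whose median transcript of 1328 nt compares with 3089 nt over all genes. Among transcripts under 1000 nt the median ratio was 0.10 for 14 large subunit genes and 0.25 for 10 small subunit genes, against 0.02 over 697 genes. From 1000 to under 2000 nt the medians were -0.03 for 19 large and 0.09 for 10 small subunit genes, against -0.13. At 2000 nt and above they were -0.11 for 16 large and -0.02 for 9 small subunit genes, against -0.30. With the length trend of all genes removed, the large subunit median was 0.08 and the small subunit median 0.20, with 31 of 49 and 21 of 29 above 0, against 49.8% of all genes. On that scale 7 large subunit genes passed 1.5-fold on the higher and 2 on the lower side, and 6 and 1 small subunit genes, against 12.1% higher and 10.3% lower over all genes. Mrpl11, Mrpl50, Mrps7 and Mrps17 joined the higher side, and Mrpl3, Mrps5 and Mrps16 left the lower side. GC content also moved with the ratio, with a rho of 0.35 across the 78 and 0.11 over all genes.

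**Figure D3:**
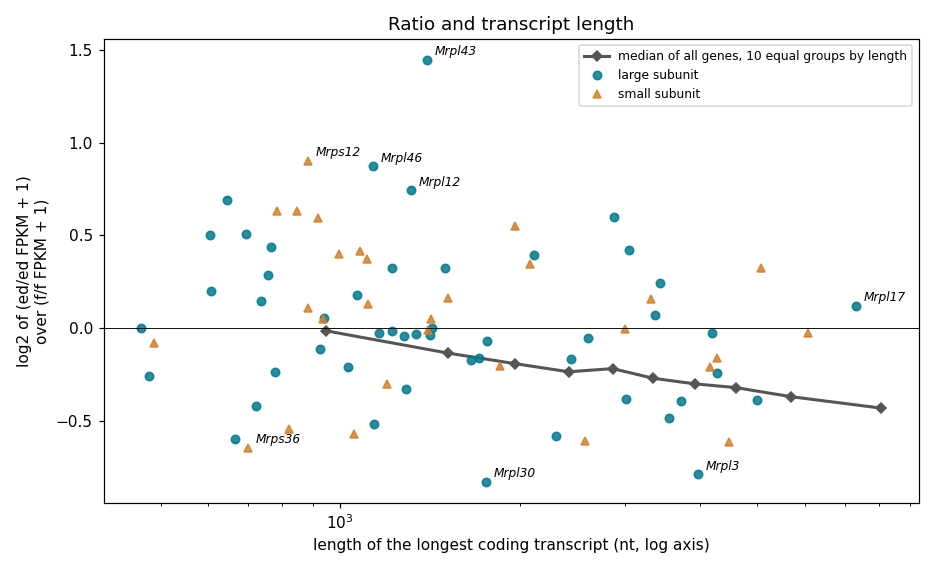
Log2 ratio of ed/ed over f/f (vertical axis) against the length of the longest coding transcript (log axis) for large subunit (circles) and small subunit genes (triangles), with the medians of 10 equal groups of all genes by length (diamonds joined by a line). The line falls from -0.01 in the shortest to -0.43 in the longest group, and the single genes scatter on both sides of it.

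The precision of a single ratio was taken from estimated fragments, and the intervals given below cover counting error only. By that measure 17 large subunit genes had an interval above 1, 17 below 1 and 15 an interval that held 1. Of small subunit genes 11 lay above, 9 below and 9 held 1. Over all genes 19.6% lay above and 58.0% below, and the spread between animals was not measured.

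The stalk of the large subunit recruits translation factors. Its genes had the highest median of the large subunit role groups, 0.50 over 5 genes. Of these 4 were above 0, against 29.6% of all genes. At 2-fold 0 passed, against 2.68% higher and 6.22% lower over all genes. Mrpl12, the homologue of the bacterial stalk protein L7/L12 (ENSMUSG00000039640, chromosome 11, positions 120484613 to 120489065, plus strand, GRCm38), was at 134 FPKM in ed/ed and 79.4 FPKM in f/f, a ratio of 1.68 (95% counting interval 1.58 to 1.79). Mrpl53, a mitochondria-specific protein near the stalk in human structures, was at 102 FPKM in ed/ed and 71.2 FPKM in f/f. Mrpl54, another such protein, was at 104 FPKM in ed/ed and 72.9 FPKM in f/f. Mrpl11, which sits at the stalk base, was at 14.9 FPKM in ed/ed and 10.9 FPKM in f/f. Mrpl10, the protein that anchors the Mrpl12 copies, was at 30.8 FPKM in ed/ed and 34.6 FPKM in f/f (ratio 0.891, interval 0.810 to 0.982). As deposited, the gene for the anchor and the gene for the protein it carries lay on opposite sides of equal. Of the Mrpl53 exon bases 87.97% are also annotated to Gm42688 on the same strand, so its reads are uncertain. Of the Mrpl12 exon bases 13.05% overlap Gm16755 on the opposite strand.

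Genes of the peptidyl transferase centre, where peptide bonds form, and of the tRNA sites near it had a median of -0.21 over 5 genes. Of these 1 was above 0, against 29.6% of all genes. Mrpl3, a homologue of the core protein L3, was at 16.5 FPKM in ed/ed and 29.2 FPKM in f/f, 1.77-fold lower (ratio interval 0.524 to 0.609). Mrpl2, the homologue of L2, was at 40.6 FPKM in ed/ed and 47.1 FPKM in f/f. Mrpl16, the homologue of L16 near the tRNA sites, was at 17.5 FPKM in ed/ed and 17.9 FPKM in f/f. Mrpl33, with its levels given above, had a log2 ratio of -0.26. Mrpl27 was the member above 0, at 71.1 FPKM in ed/ed and 58.1 FPKM in f/f, and has an annotated pseudogene copy that could share its reads.

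Genes of the exit tunnel and its rim had a median of -0.03 over 7 genes, and the ratios ran from -0.42 to 0.15. Mrpl4, whose bacterial homologue lines the tunnel, was at 30.8 FPKM in ed/ed and 38.9 FPKM in f/f. Mrpl22, whose homologue does so too, was at 29.2 FPKM in ed/ed and 39.4 FPKM in f/f. The genes of the rim were closer to equal. Mrpl23 was at 79.2 FPKM in ed/ed and 71.5 FPKM in f/f. Mrpl24 was at 87.2 FPKM in ed/ed and 89.1 FPKM in f/f. Mrpl47, the homologue of bacterial L29, was at 15.4 FPKM in ed/ed and 14.7 FPKM in f/f. Mrpl45, which in human mitochondria docks the ribosome to the inner membrane, was at 20.5 FPKM in ed/ed and 23.1 FPKM in f/f. Mrpl17 had a log2 ratio of 0.12, or 0.52 without the length trend, with the longest annotated transcript of the 78 at 7300 nt.

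The central protuberance, the crest of the large subunit that contacts the small one, had a median of -0.04 over 7 genes, with Mrpl46 apart from the others. Mrpl46 was at 36.8 FPKM in ed/ed and 19.7 FPKM in f/f, a ratio of 1.87 (interval 1.63 to 2.16) that lay just short of 2-fold on the log2 scale at 0.87. The other 6 spanned -0.24 to 0.05. Mrpl18, the homologue of L18, was at 74.3 FPKM in ed/ed and 75.1 FPKM in f/f. Mrpl38 was at 22.7 FPKM in ed/ed and 23.3 FPKM in f/f. Mrpl40 was at 30.2 FPKM in ed/ed and 31.2 FPKM in f/f. These genes lay within counting error of equal, as did Mrpl55 at 23.7 FPKM in ed/ed and 22.8 FPKM in f/f. Mrpl48 was at 29.6 FPKM in ed/ed and 35.2 FPKM in f/f (interval of the ratio 0.793 to 0.890). Mrpl58, a peptidyl-tRNA hydrolase built into the ribosome, was at 40.5 FPKM in ed/ed and 42.1 FPKM in f/f. Among the other proteins with an enzyme-like fold, Mrpl44, related to ribonuclease III, was at 29.3 FPKM in ed/ed and 29.4 FPKM in f/f. Mrpl39, which resembles a tRNA synthetase, was at 25.4 FPKM in ed/ed and 38.5 FPKM in f/f, a ratio of 0.660 (interval 0.607 to 0.718).

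Large subunit genes outside these role groups included both ends of the range. Mrpl43, a mitochondria-specific protein (ENSMUSG00000025208, chromosome 19, positions 45004829 to 45006442, minus strand, GRCm38), was at 103 FPKM in ed/ed and 37.1 FPKM in f/f, a ratio of 2.77 (interval 2.55 to 3.01) and estimated fragments of 2076 in ed/ed and 774 in f/f. Its log2 ratio of 1.44 stayed above 1 under every scaling and correction tried. Of its exon bases 33.4% overlap exons of Twnk, the mitochondrial DNA helicase gene on the opposite strand. The sources used here do not say whether strand was kept, and Twnk was at 13.7 FPKM in ed/ed and 11.6 FPKM in f/f (log2 ratio 0.22). How reads of the shared bases were assigned was not tested. Mrpl14, the homologue of L14 at the interface with the small subunit, was at 86.4 FPKM in ed/ed and 53.1 FPKM in f/f (ratio 1.63, interval 1.43 to 1.85). Of the Mrpl14 exon bases 11.2% overlap Tmem63b on the opposite strand. The mitochondria-specific Mrpl57 was at 25.2 FPKM in ed/ed and 16.4 FPKM in f/f (ratio 1.54, interval 1.41 to 1.69). Mrpl30 (ENSMUSG00000026087, chromosome 1, positions 37890477 to 37898535, plus strand, GRCm38), the homologue of L30, was at 62.8 FPKM in ed/ed and 112 FPKM in f/f, a ratio of 0.559 (interval 0.527 to 0.594). Mrpl42, a mitochondria-specific protein, was at 48.97 FPKM in ed/ed and 74.7 FPKM in f/f. Mrpl21, the homologue of L21, was at 30.7 FPKM in ed/ed and 44.4 FPKM in f/f. Mrpl42 and Mrpl21 each have an annotated pseudogene copy. The 30 large subunit genes with a bacterial homologue had a median of -0.03 and the 19 mitochondria-specific ones a median of -0.00226.

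The other large subunit genes with a bacterial homologue lay on both sides. Mrpl20, the homologue of L20, was at 46.3 FPKM in ed/ed and 33.9 FPKM in f/f. Mrpl13, the homologue of L13, was at 91.4 FPKM in ed/ed and 72.8 FPKM in f/f. Mrpl34 was at 104 FPKM in ed/ed and 90.3 FPKM in f/f. For these 3 genes, and for Mrpl28 at 50.9 FPKM in ed/ed and 44.9 FPKM in f/f, the counting interval of the ratio lay above 1. Mrpl19, the homologue of a protein at the subunit interface, was at 7.60 FPKM in ed/ed and 10.2 FPKM in f/f. Its log2 ratio was -0.39, or -0.04 without the length trend. Of the Mrpl19 exon bases 36% overlap Gcfc2 on the opposite strand, and the part of this overlap in the ratio was not tested. Mrpl32, which is cut to its mature form by the m-AAA protease of the inner membrane, was at 40.8 FPKM in ed/ed and 53.6 FPKM in f/f and has a pseudogene copy. Mrpl9 was at 38.5 FPKM in ed/ed and 43.5 FPKM in f/f. For these 3 the interval lay below 1, whereas Mrpl15 at 11.4 FPKM in ed/ed and 11.6 FPKM in f/f and Mrpl36 at 52.97 FPKM in ed/ed and 57.3 FPKM in f/f were within counting error of equal. Of the mitochondria-specific genes not yet named, 3 had intervals above 1. Mrpl50 was at 27.96 FPKM in ed/ed and 21.04 FPKM in f/f. Mrpl37, related to Mrps30, was at 26.7 FPKM in ed/ed and 21.2 FPKM in f/f. Mrpl51 was at 41.4 FPKM in ed/ed and 34.9 FPKM in f/f and has a pseudogene copy. Mrpl49 at 24.96 FPKM in ed/ed and 26.2 FPKM in f/f and Mrpl41 at 9.32 FPKM in ed/ed and 11.1 FPKM in f/f had intervals that held 1.

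**Figure D4:**
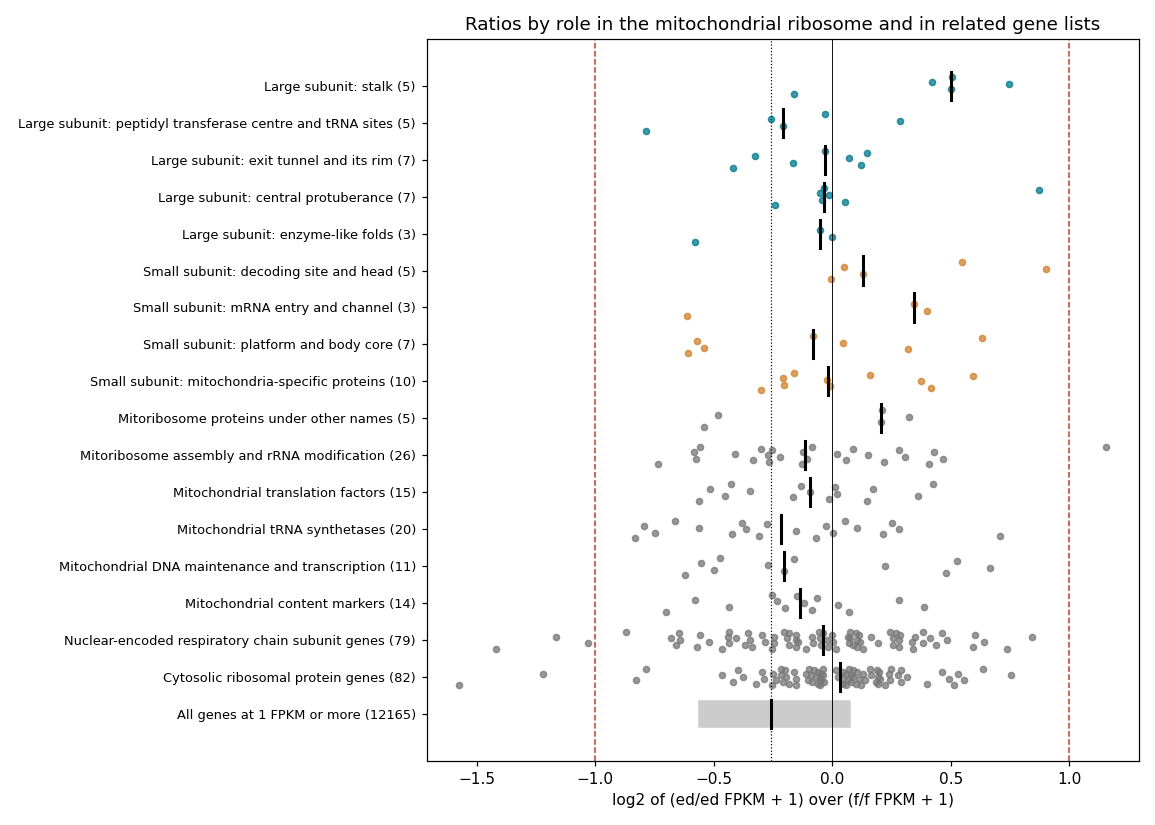
Log2 ratio of ed/ed over f/f for each gene (points) of role groups of the large subunit (teal) and small subunit (orange) and of related lists (grey), with the number of genes in brackets, the median as a black bar, and for all genes the interquartile range as a grey box. The dotted line marks the median of all genes and the dashed lines 2-fold, and the stalk genes have the rightmost median of the groups shown, 0.50.

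In the small subunit, genes of the decoding site and head had a median of 0.13 over 5 genes. Of these 4 were above 0, against 29.6% of all genes. Mrps12, the homologue of S12, which governs accuracy at the decoding site (ENSMUSG00000045948, chromosome 7, positions 28739641 to 28741820, minus strand, GRCm38), had the highest ratio of the small subunit. It was at 107 FPKM in ed/ed and 56.7 FPKM in f/f, a ratio of 1.88 (interval 1.71 to 2.07), with a log2 ratio of 0.90 just short of 2-fold. Mrps7, the homologue of the head protein S7, was at 40.8 FPKM in ed/ed and 27.6 FPKM in f/f, a ratio of 1.48 (interval 1.35 to 1.62). The remaining genes of the head were nearer to equal. Mrps9 was at 31.003 FPKM in ed/ed and 29.9 FPKM in f/f. Mrps10 was at 29.3 FPKM in ed/ed and 26.7 FPKM in f/f (interval of the ratio 0.956 to 1.25). Mrps14 was at 18.3 FPKM in ed/ed and 18.4 FPKM in f/f.

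Genes of the mRNA entry and channel were split. Mrps2, the homologue of S2, was at 23.6 FPKM in ed/ed and 18.4 FPKM in f/f. Mrps24, a homologue of S3, was at 44.9 FPKM in ed/ed and 33.8 FPKM in f/f. By contrast Mrps5, the homologue of S5, was at 10.8 FPKM in ed/ed and 17.1 FPKM in f/f, 1.58-fold lower (ratio interval 0.579 to 0.692). Genes of the platform and body core were split as well, with a median of -0.08 over 7. Mrps6, the homologue of S6, had a ratio of 1.55 (interval 1.45 to 1.67) at the levels given above. Of the Mrps6 exon bases 19.9% overlap Gm49711 and 10.4% overlap Slc5a3, both on the same strand. Mrps17 was at 39.2 FPKM in ed/ed and 31.2 FPKM in f/f. Mrps15, the homologue of S15, was at 37.6 FPKM in ed/ed and 36.4 FPKM in f/f. On the lower side, Mrps16 was at 44.8 FPKM in ed/ed and 68.9 FPKM in f/f, a ratio of 0.650 (interval 0.613 to 0.689). Mrps11, on the platform that holds the mRNA exit, was at 11.8 FPKM in ed/ed and 17.97 FPKM in f/f, a ratio of 0.655 (interval 0.537 to 0.799). Annotated pseudogene copies exist for 9 Mrps genes. They include Mrps5, Mrps16 and Mrps36, the 3 with the lowest ratios, and Mrps18b, Mrps33 and Mrps10, with log2 ratios above 0. The others are Mrps21, Mrps25 and Mrps26, with log2 ratios of -0.08, -0.02 and -0.16. The part of the copies in the ratios was not tested.

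The 3 Mrps18 genes encode related proteins with separate places, Mrps18a in the large subunit and Mrps18b and Mrps18c in the small one. Their ratios differed in sign. Mrps18a was at 74.2 FPKM in ed/ed and 68.9 FPKM in f/f (log2 ratio 0.11). Mrps18b was at 19.3 FPKM in ed/ed and 14.2 FPKM in f/f (log2 ratio 0.42). It has a pseudogene copy, and 30.5% of its exon bases overlap Gm16279 on the opposite strand. Mrps18c was at 65.8 FPKM in ed/ed and 96.3 FPKM in f/f (log2 ratio -0.54). Of the Mrps18c exon bases 23.2% overlap Gm43511 on the same strand, and the part of these overlaps in the ratios was not tested. Mrps30, the other Mrps gene whose product sits in the large subunit, was at 17.4 FPKM in ed/ed and 15.5 FPKM in f/f. Mrps36, whose product joins parts of the oxoglutarate dehydrogenase complex, had the lowest ratio among Mrps genes, at 23.6 FPKM in ed/ed and 37.4 FPKM in f/f (log2 ratio -0.65).

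The 10 mitochondria-specific small subunit genes had a median of -0.02, and the 16 with a bacterial homologue 0.09. Mrps34 was the highest of the mitochondria-specific ones, at 68.6 FPKM in ed/ed and 45.2 FPKM in f/f, but 63.4% of its exon bases overlap Mapk8ip3 on the opposite strand and 36.97% overlap Nme3 on the same strand. Mapk8ip3 was at 8.80 FPKM in ed/ed and 8.67 FPKM in f/f and Nme3 at 40.4 FPKM in ed/ed and 32.8 FPKM in f/f. Mrps28, counted with the bacterial homologues since it is related to bacterial S1, was at 67.5 FPKM in ed/ed and 43.3 FPKM in f/f, a ratio of 1.56 (interval 1.38 to 1.77). Mrps33 was at 46.3 FPKM in ed/ed and 35.5 FPKM in f/f and has a pseudogene copy. Mrps35 was at 26.4 FPKM in ed/ed and 30.6 FPKM in f/f, Mrps27, a protein of the pentatricopeptide repeat family, at 11.1 FPKM in ed/ed and 12.99 FPKM in f/f, and Mrps26 at 35.1 FPKM in ed/ed and 39.3 FPKM in f/f, each with an interval of the ratio below 1. Mrps23 was at 29.7 FPKM in ed/ed and 29.9 FPKM in f/f, within counting error of equal. Mrps22 had a log2 ratio of -0.30, the lowest of the mitochondria-specific group.

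Proteins of the mitochondrial ribosome that carry other names lay on both sides. Dap3, a GTP-binding protein of the small subunit, was at 41.2 FPKM in ed/ed and 60.5 FPKM in f/f, and Ptcd3, which binds mRNA at the entry site, at 10.4 FPKM in ed/ed and 14.9 FPKM in f/f. Chchd1 was at 76.6 FPKM in ed/ed and 60.9 FPKM in f/f, Aurkaip1 at 55.5 FPKM in ed/ed and 47.9 FPKM in f/f and the large subunit gene Gadd45gip1 at 35.8 FPKM in ed/ed and 30.8 FPKM in f/f. Their median was 0.21 over 5, with 0 past 2-fold, against 2.68% higher and 6.22% lower over all genes.

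Genes that build and serve the mitochondrial ribosome had medians below those of both subunits as deposited, but not all of them once the length trend was removed. The 26 assembly and rRNA modification genes had a median of -0.12, with 1 at least 2-fold higher and 0 lower, against 2.68% higher and 6.22% lower over all genes. That gene was Mterf4, which works in large subunit assembly, at 22.03 FPKM in ed/ed and 9.34 FPKM in f/f (ratio 2.36, interval 2.12 to 2.63). Tfb1m, the methyltransferase that modifies the small subunit RNA, had the lowest ratio, at 6.59 FPKM in ed/ed and 11.6 FPKM in f/f. The 15 translation factors found had a median of -0.09 and 0 past 2-fold, between the elongation factor gene Tsfm at 40.7 FPKM in ed/ed and 30.1 FPKM in f/f and the recycling factor gene Mrrf at 8.46 FPKM in ed/ed and 12.96 FPKM in f/f. The 20 genes for charging mitochondrial tRNAs had a median of -0.22 and 0 past 2-fold, between Ears2 at 6.18 FPKM in ed/ed and 3.40 FPKM in f/f and Mars2 at 0.482 FPKM in ed/ed and 1.64 FPKM in f/f. Transcripts of these lists were longer, with medians of 1954 nt for assembly genes, 2623 nt for translation factors and 3282 nt for tRNA charging genes. Without the length trend their median log2 ratios were 0.05, 0.15 and 0.04, beside 0.08 for large and 0.20 for small subunit genes, so the translation factors then lay between the subunits.

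Genes of mitochondrial DNA maintenance and transcription had a median of -0.20 over 11, between the elongation factor gene Tefm at 11.97 FPKM in ed/ed and 7.19 FPKM in f/f and the RNA polymerase gene Polrmt at 2.95 FPKM in ed/ed and 5.08 FPKM in f/f. General markers of mitochondrial content had a median of -0.13 over 14, and the highest ratio was that of the import channel gene Tomm40, at 47.3 FPKM in ed/ed and 35.9 FPKM in f/f. Of 12 regulators of mitochondrial genes 9 were at 1 FPKM or more, with a median of -0.41. Of these 0 passed 2-fold, against 2.68% higher and 6.22% lower over all genes. The nuclear receptor gene Esrra was the highest of them, at 39.1 FPKM in ed/ed and 25.3 FPKM in f/f. The cofactor gene Hcfc1 was the lowest, at 9.52 FPKM in ed/ed and 16.5 FPKM in f/f. Median transcript lengths were 2449 nt for DNA maintenance and transcription genes, 1988 nt for content markers and 4987 nt for regulators. Without the length trend the median log2 ratios of these lists were 0.05, 0.04 and -0.20, so only that of the regulators stayed below 0. The genes of NRF1, GABP and YY1, whose motifs were searched, were chosen after their values were seen. They were lower in ed/ed apart from Gabpb1. Of the 12165 genes at 1 FPKM or more, 8564 had a ratio below 0 too. Yy1 had a log2 ratio of -0.24, near the median of all genes at -0.26. Nrf1 was at 6.99 FPKM in ed/ed and 11.5 FPKM in f/f. Of the GABP subunit genes, Gabpa was at 11.2 FPKM in ed/ed and 17.1 FPKM in f/f, Gabpb1 at 18.8 FPKM in ed/ed and 14.99 FPKM in f/f and Gabpb2 at 6.82 FPKM in ed/ed and 11.7 FPKM in f/f.

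The subunit genes of the cytosolic ribosome and of the respiratory chain had medians near that of the 78, -0.00816. The 82 cytosolic ribosomal protein genes had a median of 0.03 (SD 0.36), with 0 higher and 2 lower by 2-fold, against 2.68% higher and 6.22% lower over all genes. The 79 respiratory chain and ATP synthase genes had a median of -0.04 (SD 0.42), with 0 higher and 3 lower. Their transcripts were short too, with a median of 926 nt for cytosolic ribosomal and 865 nt for respiratory chain genes. Without the length trend the medians were 0.06 for cytosolic ribosomal and -0.01 for respiratory chain genes, beside 0.12 for the 78 mitochondrial ribosomal protein genes. With 1 library per genotype these differences between sets could not be tested.

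Some of these genes start close to a neighbour on the opposite strand, and how often other genes do was not counted. For 33 of the 78, a protein-coding gene on the other strand starts within 1000 bp, and 28 pairs had a neighbour at 1 FPKM or more that is not itself a mitochondrial ribosomal protein gene. The ratio of the mitochondrial ribosomal protein gene was above that of its neighbour in 23 of these 28, with medians of 0.03 for the members and -0.25 for the neighbours. The median of all genes was -0.26, near that of the neighbours. Of all 78 members 61 lay above it, against 50.0% of all genes. The sign was the same in 14 of 28, and the Spearman rho between the ratios of a pair was -0.05 across pairs. Transcripts had a median length of 1339 nt for the members and 3081 nt for the neighbours, and without the length trend the member was above in 21 of 28. Mrps12 shares its start region with Sars2, the mitochondrial seryl-tRNA synthetase gene, which was at 7.23 FPKM in ed/ed and 6.92 FPKM in f/f, close to equal. Mrpl30 lies beside Mitd1, a gene of abscission, which was at 21.7 FPKM in ed/ed and 14.7 FPKM in f/f and so lay on the other side of equal. Mrpl46 and Mrps11 form a pair of 2 members, left out of these counts, with log2 ratios of 0.87 and -0.57, and 12.2% of the Mrpl46 exon bases overlap those of Mrps11 on the opposite strand. The part of these overlaps in the ratios was not tested.

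**Figure D5:**
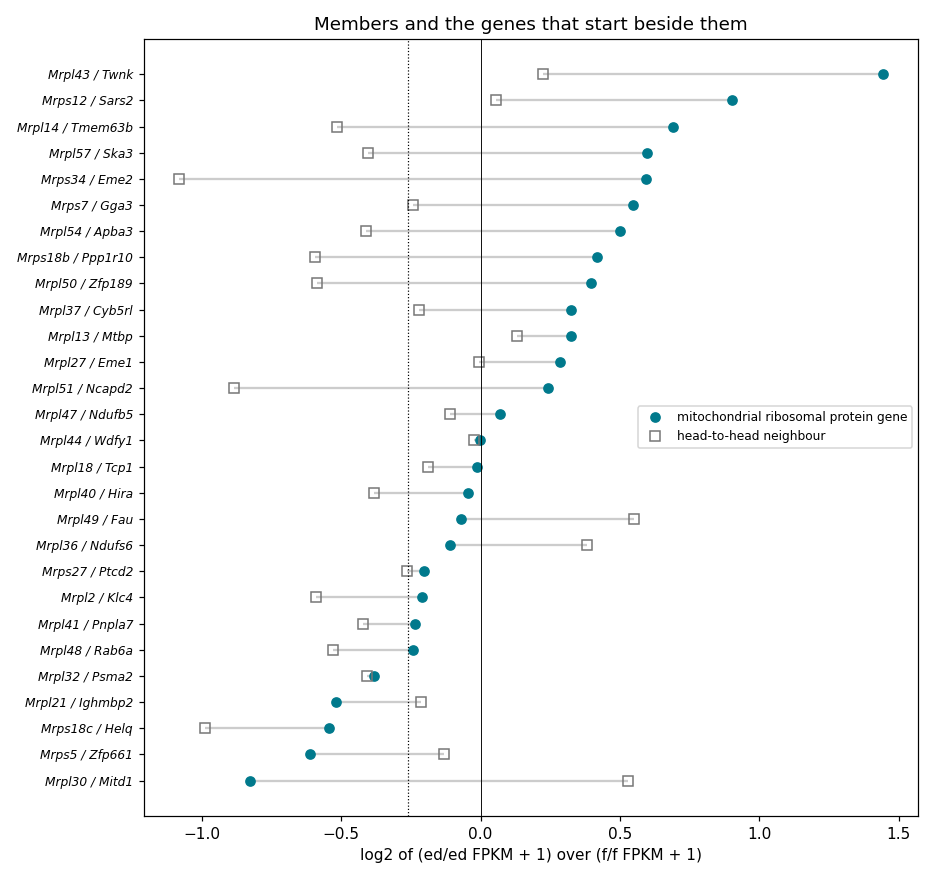
Log2 ratio of ed/ed over f/f for 28 mitochondrial ribosomal protein genes (filled circles) and the genes that start within 1000 bp on the other strand (open squares), ordered by the ratio of the member, with the median of all genes as a dotted line. The circle lies to the right of the square in 23 of 28 pairs.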

How the data were processed

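Whole uterus RNA was sequenced in 1 ed/ed and 1 f/f library. The deposited tables give 1 value per gene, taken as FPKM that the authors obtained from HISAT2 2.2.1 and Cufflinks 2.2.1, tools named in the submitters' processing notes. The header names no unit, so FPKM is inferred from Cufflinks and the values. Builds mm9 and mm10 are named without a role, and no source used here gives the annotation. Gene positions and transcript lengths came from GENCODE M21 (GRCm38), matched by identifier for 78 of 78 genes, and locate genes, not reads.

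Ratios used a pseudocount of 1 FPKM and a filter at 1 FPKM in either library. Fragments were estimated from FPKM, the longest coding transcript less 250 nt, and the spacing of low values, so they are upper estimates where a shorter transcript is used. Intervals are exact 95% conditional binomial intervals of the FPKM ratio and cover counting error only. The trend on length was taken out with lowess (fraction 0.3; statsmodels 0.14.6). A pseudogene copy means at least 95% identity over 200 nt to an annotated pseudogene (blastn), found for 9 large and 9 small subunit genes. Exons of 22 large and 11 small subunit genes overlap another gene. Of these 33 genes 6 were 1.5-fold higher and 1 lower, and of the 45 others 3 were higher and 5 lower. Over all genes 7.04% were higher and 23.4% lower. Genes named by rule were the 5 highest and 5 lowest ratios and the 3 most and 3 least abundant genes of each subunit, the role groups, and the extremes of other lists, of which 1 is not reported here. The other members and the neighbours were named after their values were seen. Members and lists were chosen with earlier results of these data known.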

Additional observations from a re-analysis of the deposited data

How the results depend on the processing

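Scaling to the f/f sum, by the upper quartile, by the median ratio and by reference genes raised the ed/ed values by 0.09, 0.21, 0.28 and 0.36 (log2). The large subunit median was then 0.054, 0.17, 0.24 and 0.31, and the small subunit median 0.13, 0.25, 0.32 and 0.40. Large subunit genes above 0 numbered 34, 38 and 39 of 49 under the last 3 scalings, against 44.0%, 49.2% and 55.2% of all genes. Under those 3 scalings 2, 3 and 4 large subunit genes and 1 small subunit gene each were at least 2-fold higher, against 4.14%, 4.75% and 5.62% of all genes. Besides Mrpl43 these were Mrpl46 and Mrps12 in each, Mrpl12 in the last 2 and Mrpl14 in the last. With the length trend removed the large and small subunit medians were 0.078 and 0.20, and without length and GC content 0.079 and 0.19. At 1.5-fold, 5 large and 4 small subunit genes were higher, and 3 of each lower, against 7.04% higher and 23.4% lower over all genes. Among transcripts of 1000 nt or more, 12 of 35 large and 9 of 19 small subunit genes lay above 0, and the small subunit median was -0.0073. Over all genes the share above 0 was 40.2% from 1000 to under 2000 nt and 25.1% at 2000 nt and above. Without genes that have a pseudogene copy the small subunit median was 0.13. Genes whose exons overlap another gene were also left out, a choice made after seeing the data. Then 0 of 27 large subunit genes were 2-fold higher, since Mrpl43 is left out, against 2.68% of all genes. Above 0 lay 12 of 27 large and 10 of 18 small subunit genes, against 29.6% of all genes, from which overlaps were not removed. The counts at 2-fold were the same under pseudocounts of 0.1 and 5 FPKM, no filter or a filter at 5 FPKM. The counts above 0 and the signs of both medians could not change under these settings. A pseudocount keeps the sign of a ratio, and every member was above 5 FPKM in both libraries, so no filter removed one. No replicate could be left out with 1 library per genotype. No paired analysis was possible because each genotype has 1 library and no test was made. Depth limited precision most for the genes with the fewest estimated fragments, down to 86 in ed/ed and 107 in f/f.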
